A study of Homo sapiens with 6 samples.

Results

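Described here are 36 genes of the ATF4 amino-acid response and of serine synthesis in SH-SY5Y, an established human neuroblastoma cell line that serves as a neuronal model. They were chosen by name: 7 transcription factors, 3 feedback and stress effectors, 6 enzymes of serine and one-carbon metabolism, 5 other enzymes of amino acid synthesis, 6 amino acid transporters, 7 cytosolic tRNA synthetases and 2 secreted or surface proteins. Each gene was represented by the brightest of its probe sets (groups of short array probes read as 1 value) that carried that symbol alone. All 36 had such a probe set, among 18244 genes in all, and 34 of the 36 were bright enough to be tested, among 12639 genes in all. *NUPR1* and *ALDH1L2* lay below that filter and are given by value only.

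Total RNA was profiled on 6 oligonucleotide arrays of 1 colour. In 3 samples the cells had been transfected with an anti-miR, a synthetic inhibitor, against hsa-miR-137 (anti-miR-137), and in the other 3 with a commercial anti-miR negative control. Both were given at 15 pM with a lipid reagent 24 hours after seeding, and RNA was taken 72 hours after transfection. The series was made to look for mRNAs that respond to loss of miR-137 and might be its targets. The arrays are numbered 1 to 3 in both groups, the labels do not say what a number stands for or whether the cultures were separate, so the p-values rest on the spread among these 6 arrays, part of which may be technical. Values are log2 values; a difference of 1 is a doubling. They were normalised so that the distributions of the arrays are alike, and so are relative and not absolute amounts. As in any bulk sample, fewer cells of a type and less RNA per cell cannot be told apart.

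ATF4 is the transcription factor at the end of the integrated stress response. When amino acids run short or the endoplasmic reticulum is stressed, kinases phosphorylate the initiation factor eIF2, most translation slows, and *ATF4* mRNA is translated more. ATF4 protein, paired with C/EBP family members, then binds a composite site (the C/EBP-ATF response element) and switches on genes that import amino acids, make serine, glycine and asparagine, and charge tRNAs. Because ATF4 is controlled largely by translation, the mRNAs of its target genes are usually read as the response, more than *ATF4* mRNA itself.

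The miRNA that the inhibitor was made against is shown first, with its seed, bases 2 to 8, in capitals. Its mature strand is encoded on the minus strand at chr1:98046091-98046113 of GRCh38.p14 (RefSeq).
hsa-miR-137-3p: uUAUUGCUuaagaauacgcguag

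Next are stretches of RefSeq promoters (GRCh38.p14) that hold a match to the ATF4 composite element, which the rule for choosing the genes did not use. The motif searched was TGATGNAA on both strands (TTNCATCA when read on the opposite strand), in windows of 300 bases from 250 before to 50 after each annotated start. Windows were at hand for 30 of the 36 genes, 50 windows in all. At least 1 match was present for 11 of the 30 genes (36.7%), against 1217 of 27305 genes (4.46%) over all promoters. The form TGATGCAA alone was present for 7 of the 30 (23.3%), against 295 of 27305 (1.08%). Genes were listed because they are known to respond to ATF4, so these shares are a description, and a match by letters is not a binding site. Capitals mark the match. The first 3 are examples of ATF4 targets with different roles, each with a match wholly before the start: *ASNS* (68 bases before, chr7:97872439-97872558, minus strand), *CHAC1* (209 bases before, chr15:40953221-40953340, plus strand) and *AARS1* (187 bases before, chr16:70289637-70289756, minus strand).
ASNS: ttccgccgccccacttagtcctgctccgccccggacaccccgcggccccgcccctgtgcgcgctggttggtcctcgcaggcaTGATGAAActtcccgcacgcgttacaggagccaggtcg
CHAC1: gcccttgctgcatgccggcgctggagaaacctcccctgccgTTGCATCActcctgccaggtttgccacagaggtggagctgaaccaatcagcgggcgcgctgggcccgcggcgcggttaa
AARS1: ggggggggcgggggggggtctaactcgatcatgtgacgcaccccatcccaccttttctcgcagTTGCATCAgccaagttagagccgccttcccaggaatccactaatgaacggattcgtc
Shorter stretches are given for 3 genes whose match lay at, or within 42 bases of, an annotated start: the transporter *SLC1A4* (chr2:64989381-64989410, plus strand), whose values differed between replicate numbers below, the synthetase *MARS1* (chr12:57488053-57488082, plus strand) and the ATF4 partner *CEBPG* (chr19:33374060-33374089, plus strand).
SLC1A4: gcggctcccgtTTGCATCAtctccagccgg
MARS1: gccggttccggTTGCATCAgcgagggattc
CEBPG: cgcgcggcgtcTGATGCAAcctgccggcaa
Matches were also present for *ATF3*, *GARS1*, *SLC3A2*, *NARS1* and *SLC1A5*. For *SLC1A4*, *CEBPG*, *GARS1*, *SLC3A2* and *SLC1A5* another annotated start of the same gene lay upstream of the match. Those matches are thus not before every annotated start of their gene. *PSPH*, *SHMT2*, *PYCR1*, *SLC7A11*, *NUPR1* and *ALDH1L2* had no window.

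None of these genes passed the test between the treatments. Of the 34 tested, 0 had an adjusted p under 0.05 in limma, the smallest adjusted p was 1.00, and 0 had an unadjusted p under 0.05. Over all 12639 genes the adjusted threshold was passed by 0% and the unadjusted one by 2.65%. Values were higher in anti-miR-137 cells for 18 members and lower for 16 (52% of all genes were higher), with a median log2 difference of 0.0053, against 0.0033 over all genes. The differences ran from -0.16 for *VLDLR* to 0.15 for *AARS1*. In 0 of the 34 did the 3 anti-miR-137 arrays lie wholly above or below the 3 control arrays, where 7.36% of all genes did. The 95% confidence interval lay within 0.5 log2 units of 0 for all 34 and within 0.3 for 17. The number of arrays limits this precision. The fit also had no term for replicate number, so differences between the numbers, described below, are part of the spread behind these intervals. With such a term added, 0 genes passed the adjusted threshold, and 815 genes, 2 of them members, had an unadjusted p under 0.05 in limma. With each array centred on its median, 14 members had higher and 20 lower values.

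**Figure D1:**
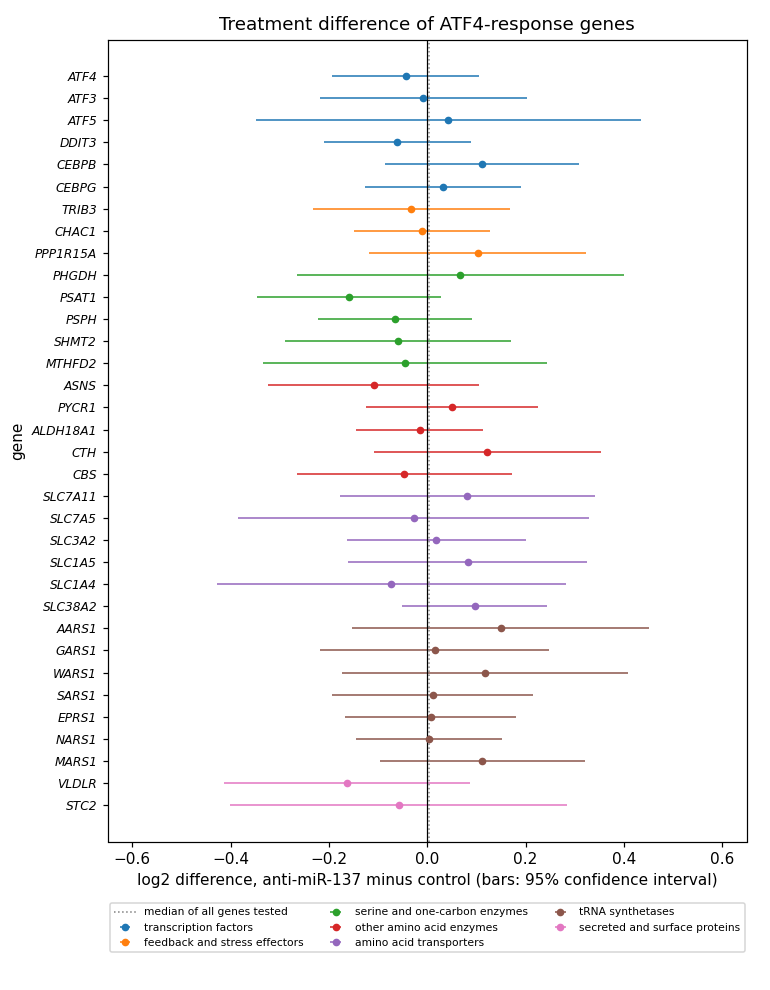
Log2 difference between 3 anti-miR-137 and 3 control arrays (horizontal axis) for the 34 tested ATF4-response genes (vertical axis), coloured by role; bars are 95% confidence intervals and the dotted line is the median of all genes tested. Every interval crosses 0, and the points run from -0.16 to 0.15.

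Among the transcription factors, *ATF4* itself measured 12.04, 12.15 and 12.16 in anti-miR-137 replicates 1, 2 and 3, and 12.13, 12.22 and 12.13 in the control replicates. The groups overlapped, and the log2 difference was -0.04 with a 95% confidence interval from -0.19 to 0.11. *DDIT3*, which encodes the pro-apoptotic factor CHOP, measured 7.15, 7.04 and 7.10 against 7.24, 7.13 and 7.12, a difference of -0.06 (-0.21 to 0.09). *ATF3*, a stress-induced repressor and activator, gave 7.62, 7.86 and 7.92 against 7.74, 7.89 and 7.80, and its difference was -0.0081 (-0.22 to 0.20). For both genes the arrays of the treatments were interleaved. *CEBPB*, a C/EBP family partner of ATF4, measured 7.72, 7.78 and 7.78 against 7.47, 7.72 and 7.75, and the difference of 0.11 (-0.09 to 0.31) rested mostly on the low control replicate 1. *ATF5* (0.04) and *CEBPG* (0.03), the remaining tested factors, had intervals that included 0. *NUPR1*, a small stress-induced chromatin protein, lay below the filter in every array, at 4.77, 4.85 and 4.78 against 4.71, 4.50 and 4.74.

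The feedback arm gave values close to each other in both treatments. *TRIB3*, a pseudokinase that restrains ATF4, measured 9.11, 9.22 and 9.32 in anti-miR-137 cells and 9.11, 9.29 and 9.34 in control cells, a difference of -0.03 (95% confidence interval -0.23 to 0.17). *CHAC1*, a glutathione-degrading enzyme and a sensitive marker of the response, measured 7.83, 7.86 and 7.86 against 7.93, 7.82 and 7.83. Its difference of -0.01 had an interval from -0.15 to 0.13. *PPP1R15A*, which encodes the phosphatase subunit GADD34 that ends eIF2 phosphorylation, had a difference of 0.10 (-0.12 to 0.32).

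Of the 5 tested enzymes of serine and one-carbon metabolism, 1 was higher and 4 were lower in value after anti-miR-137, with a median difference of -0.06. *PSAT1*, the aminotransferase of the middle step of serine synthesis, had the smallest unadjusted p of all members, 0.083 in limma. It measured 11.63, 11.51 and 11.60 in anti-miR-137 cells and 11.78, 11.60 and 11.84 in control cells. The highest anti-miR-137 array lay above the lowest control array, and the difference was -0.16 with a standard error of 0.080 (interval -0.35 to 0.03). The difference was also negative in 6 of its 7 other probe sets, which ranged from -0.13 to 0.02. *PHGDH*, the first enzyme of the pathway, measured 10.41, 10.59 and 10.92 against 10.41, 10.56 and 10.75, a difference of 0.07 (-0.27 to 0.40). *PSPH*, the phosphatase of the last step, had -0.07 (-0.22 to 0.09). *SHMT2*, which splits serine into glycine and a one-carbon unit in mitochondria, had -0.06 (-0.29 to 0.17). *MTHFD2*, the mitochondrial folate dehydrogenase downstream of it, had -0.05 (-0.33 to 0.24). The mitochondrial folate enzyme *ALDH1L2* lay below the filter, at 4.99, 5.23 and 5.04 against 5.12, 5.21 and 4.90.

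Asparagine synthetase, *ASNS*, whose promoter match is shown above, measured 11.71, 11.66 and 11.91 in anti-miR-137 cells and 11.78, 11.82 and 12.00 in control cells. The groups overlapped, and the difference was -0.11 (95% confidence interval -0.32 to 0.11). Its 3 other probe sets gave -0.12 to -0.09. *CTH*, which makes cysteine from cystathionine, measured 7.66, 7.48 and 7.45 against 7.23, 7.53 and 7.45, so that its difference of 0.12 (-0.11 to 0.35) lay in the replicate 1 arrays. The proline synthesis enzymes *PYCR1* (0.05) and *ALDH18A1* (-0.02) and the cystathionine synthase *CBS* (-0.05) had intervals that included 0.

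Among the 6 transporters, values were higher after anti-miR-137 in 4 and lower in 2. *SLC38A2*, a sodium-coupled neutral amino acid transporter, measured 12.05, 12.10 and 12.05 against 11.94, 12.05 and 11.91. The difference was 0.10 (95% confidence interval -0.05 to 0.24). Its 2 other probe sets, far dimmer at mean levels of 6.21 and 6.12, gave -0.15 and 0.01. *SLC7A11*, the cystine and glutamate exchanger, measured 7.49, 7.54 and 7.36 against 7.62, 7.23 and 7.30, a difference of 0.08 (-0.18 to 0.34). *SLC7A5*, the leucine transporter LAT1, measured 7.90, 7.95 and 8.08 against 7.71, 7.96 and 8.35, with the lowest and the highest array both among the controls and a difference of -0.03 (-0.39 to 0.33). Its partner chain *SLC3A2* had 0.02 (-0.16 to 0.20). *SLC1A5* (0.08) and *SLC1A4* (-0.07), carriers of glutamine and of alanine, serine and cysteine, also overlapped between treatments.

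The difference was positive in 7 of 7 tRNA synthetases, at 0.0038 to 0.15 log2 units with a median of 0.01, but in 3 of 7 with each array centred on its median and in 6 of 7 after quantile normalization, and none passed. *AARS1*, which charges alanine tRNA, measured 8.99, 9.18 and 9.39 in anti-miR-137 cells and 8.82, 9.10 and 9.19 in control cells, a difference of 0.15 (95% confidence interval -0.15 to 0.45). *WARS1*, for tryptophan, measured 9.55, 9.68 and 9.91 against 9.43, 9.55 and 9.80, a difference of 0.12 (-0.17 to 0.41). *MARS1*, for methionine, measured 10.28, 10.48 and 10.47 against 10.20, 10.44 and 10.27, and its difference was 0.11 (-0.10 to 0.32). In each of these 3 genes the arrays of the treatments overlapped. For *GARS1*, *SARS1*, *EPRS1* and *NARS1* (glycine, serine, glutamate with proline, and asparagine) the differences were 0.0038 to 0.015. The other probe set of *EPRS1* gave -0.16, and the 3 others of *NARS1* gave -0.08 to -0.03.

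*VLDLR*, a lipoprotein receptor that ATF4 can induce, measured 8.08, 7.88 and 8.30 in anti-miR-137 cells and 8.17, 8.27 and 8.30 in control cells. Replicate 2 of the anti-miR-137 group was the low array, and the difference was -0.16 (95% confidence interval -0.41 to 0.09). The secreted glycoprotein *STC2* had -0.06 (-0.40 to 0.28). Where a gene had more than 1 probe set above the filter, probe sets often disagreed: of 66 other probe sets in 25 genes, 38 had the sign of the brightest one in the treatment difference, and in 10 genes all of them did.

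Between replicate numbers, transporters, synthetases and serine enzymes mostly had higher values in replicate 3 than in replicate 1, in both treatments, and 1 gene passed the test. Tested over the 3 numbers with treatment as a term, 1 of the 34 members, *SLC1A4*, had an adjusted p under 0.05 in limma's F test, where 2.53% of all genes did. At an unadjusted p under 0.05 there were 15 of 34, against 23.5% of all genes. In replicate 3 arrays 28 of the 34 had higher and 6 lower mean values than in replicate 1 arrays, against 47% of all genes higher (25 to 29 members under quantile normalization, median centring and cyclic loess), and the median log2 difference was 0.17, against -0.01 over all genes. For 22 members both replicate 3 arrays lay above both replicate 1 arrays (28.9% of all genes), and for 4 both lay below (31.9%). Replicate 2 had a median 0.10 above replicate 1, with 18 members wholly above it (23.2% of all genes) and 4 wholly below (21.8%). Replicate 3 had 17 members wholly above replicate 2 (22.7%) and 3 wholly below (22.9%). Adjusted p-values given below beside a difference between replicates 3 and 1 come from limma's F test over all 3 numbers. No p-value was computed for that difference alone. The numbers have no order, and these results describe 6 arrays, 2 of each number.

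**Figure D2:**
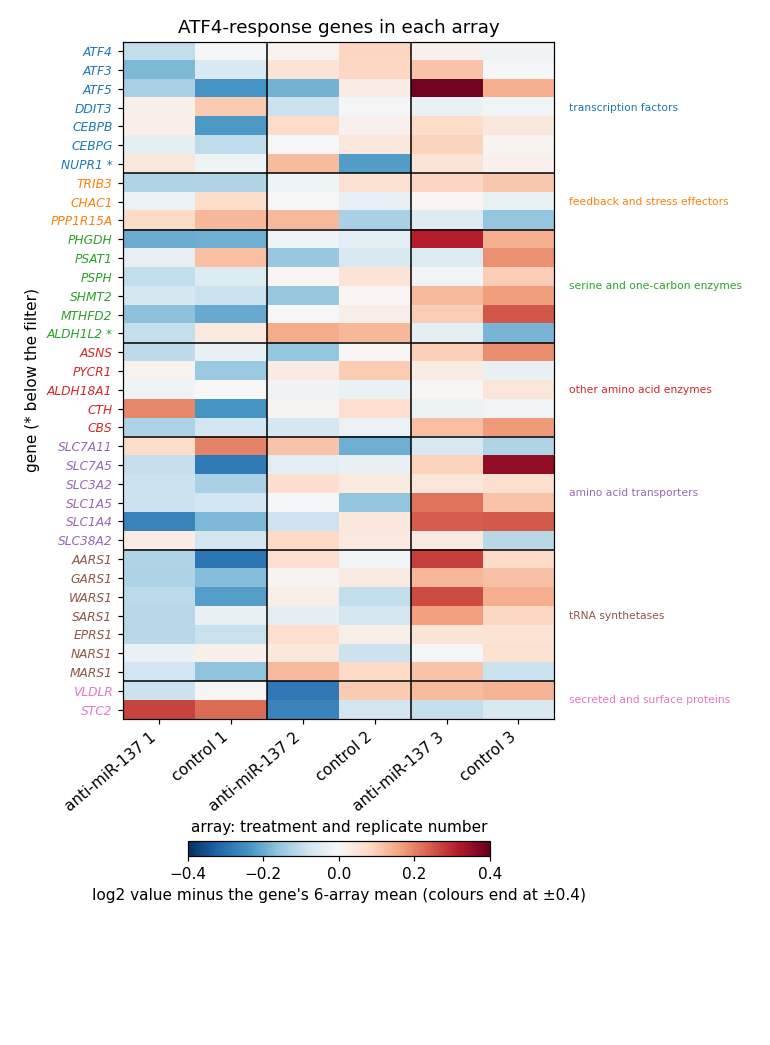
Log2 value of each of the 36 ATF4-response genes (rows, grouped by role) in each of the 6 arrays (columns, by replicate number and treatment), as the difference from the gene's 6-array mean. Blue is lower and red is higher; transporters, synthetases and serine enzymes are mostly blue in the replicate 1 columns and red in the replicate 3 columns of both treatments.

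*SLC1A4*, a carrier of alanine, serine and cysteine, measured 7.14 and 7.23 in replicate 1 (the anti-miR-137 array is given first, here and below), 7.32 and 7.45 in replicate 2, and 7.65 and 7.65 in replicate 3. The 3 pairs of values did not overlap. Replicate 3 lay 0.47 log2 units above replicate 1 with a standard error of 0.064, or 1.38-fold (adjusted p = 0.049, limma F test). The call ended without the filter on dim probe sets (adjusted p = 0.13), with all probe sets of the gene averaged (0.24 log2 units, adjusted p = 0.13), with RNA integrity added to the fit (0.21), and when anti-miR-137 replicate 1 (0.17), control replicate 1 (0.18), anti-miR-137 replicate 3 (0.35) or control replicate 3 (0.35) was left out; over all its alternatives the adjusted p ran from 0.013 to 0.35. Its 4 other probe sets above the filter gave -0.11 to 0.83, and 2 of the 4 had the sign of the brightest.

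No other transporter passed. *SLC7A5* measured 7.90 and 7.71 in replicate 1, 7.95 and 7.96 in replicate 2, and 8.08 and 8.35 in replicate 3. The difference between replicates 3 and 1 was 0.41 with a standard error of 0.11 (F test adjusted p = 0.17, limma). Its other probe set above the filter gave -0.25. *SLC1A5* measured 8.06 and 8.06, then 8.13 and 7.98, then 8.36 and 8.25, a difference of 0.25 (adjusted p = 0.13), with both replicate 3 arrays above the 4 others. *SLC3A2* stood at 9.06 and 9.02 in replicate 1 and between 9.19 and 9.22 in the 4 other arrays. The cystine exchanger *SLC7A11* had the opposite order, 7.49 and 7.62 in replicate 1 against 7.36 and 7.30 in replicate 3. Its other probe set above the filter gave 0.66, but it was dim, with a mean level of 5.98 where the filter lay at 5.69. *SLC38A2* differed by -0.02 between replicates 3 and 1 in its brightest probe set, with a mean level of 12.02. Its 2 other probe sets gave 0.20 and 0.46 at mean levels of only 6.12 and 6.21, and their average with the brightest gave 0.21.

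Among the synthetases, 7 of 7 had higher mean values in replicate 3 than in replicate 1 (47% of all genes). For 5 of them there was no overlap (28.9% of all genes), the median difference was 0.19, and 0 of 7 passed. *WARS1* measured 9.55 and 9.43 in replicate 1, 9.68 and 9.55 in replicate 2, and 9.91 and 9.80 in replicate 3. Its difference between replicates 3 and 1 was 0.37 with a standard error of 0.059 (F test adjusted p = 0.060, limma). Its 2 other probe sets above the filter gave 0.37 and 0.41. *AARS1* measured 8.99 and 8.82, then 9.18 and 9.10, then 9.39 and 9.19, a difference of 0.38 (adjusted p = 0.067), and its other probe set gave 0.28. *GARS1* stood at 12.35 and 12.30, then 12.49 and 12.51, then 12.61 and 12.59, a difference of 0.27 (adjusted p = 0.11), matched by 0.27 in its other probe set. *NARS1* (0.03) and *MARS1* (0.13) overlapped between these numbers.

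Serine and one-carbon enzymes gave 5 of 5 higher mean values in replicate 3 than in replicate 1 (47% of all genes). For 4 there was no overlap (28.9% of all genes), the median difference was 0.23, and 0 of 5 passed. *PHGDH* measured 10.41 and 10.41 in replicate 1, 10.59 and 10.56 in replicate 2, and 10.92 and 10.75 in replicate 3, so that the 3 numbers did not overlap. The difference between replicates 3 and 1 was 0.42 with a standard error of 0.070 (F test adjusted p = 0.066, limma). *MTHFD2* measured 11.62 and 11.58, then 11.78 and 11.81, then 11.88 and 12.04, a difference of 0.36 (adjusted p = 0.096), and its 4 other probe sets gave 0.24 to 0.36. *SHMT2* measured 9.28 and 9.26, then 9.20 and 9.36, then 9.48 and 9.52, a difference of 0.23 (adjusted p = 0.17). *PSAT1*, the step between *PHGDH* and *PSPH*, differed by 0.02 between replicates 3 and 1 and lay lowest in replicate 2; its 7 other probe sets gave 0.09 to 0.26. *PSPH* had 0.12, and its 2 other probe sets gave -0.05 and -0.00080.

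**Figure D3:**
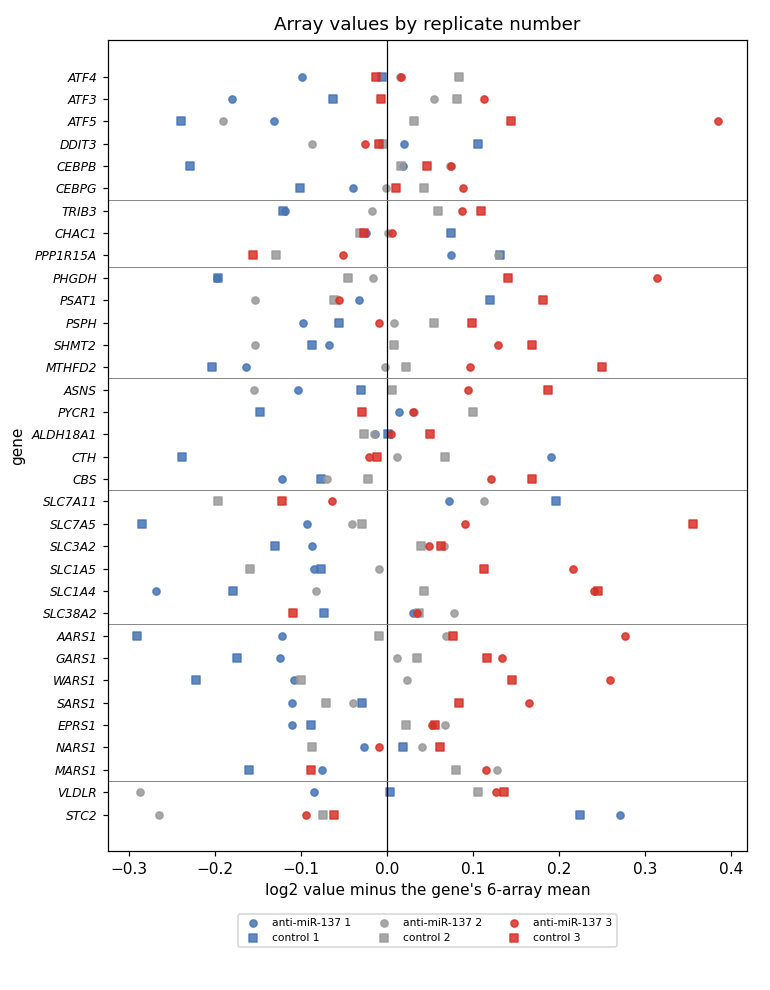
Array values of the 34 tested genes (vertical axis) as log2 differences from the gene's 6-array mean (horizontal axis); colour gives the replicate number and the symbol the treatment (circle anti-miR-137, square control). For *PHGDH*, *WARS1*, *GARS1* and *SLC1A4* both replicate 3 points lie right of both replicate 1 points, while *STC2* has the reverse.

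Of the 6 tested transcription factors, 5 had higher mean values in replicate 3 than in replicate 1 (47% of all genes). For 4 of them there was no overlap (28.9% of all genes), and 0 passed. *ATF4* lay at 12.04 and 12.13 in replicate 1, 12.15 and 12.22 in replicate 2, and 12.16 and 12.13 in replicate 3. Its difference between replicates 3 and 1 was 0.05 (F test adjusted p = 0.56, limma). *ATF5* measured 7.07 and 6.96, then 7.01 and 7.23, then 7.58 and 7.34, a difference of 0.45 (adjusted p = 0.14), while its 3 other probe sets gave -0.11 to 0.15. *ATF3* (0.17), *CEBPB* (0.17) and *CEBPG* (0.12) also had both replicate 3 arrays above both replicate 1 arrays; the other probe sets above the filter gave -0.21 to -0.08 for *ATF3* and 0.48 for *CEBPG*. Among the feedback genes, *TRIB3* stood at 9.11 and 9.11, then 9.22 and 9.29, then 9.32 and 9.34, and these pairs did not overlap (difference 0.22, adjusted p = 0.18). The factor *DDIT3* (-0.08) and the feedback gene *PPP1R15A* (-0.21) had lower values in replicate 3 than in replicate 1, without overlap, and *CHAC1* (-0.03) overlapped. *STC2* measured 6.63 and 6.58 in replicate 1, 6.09 and 6.28 in replicate 2, and 6.26 and 6.29 in replicate 3. Its difference from replicate 1 was -0.33 in replicate 3 and -0.42 in replicate 2 (F test adjusted p = 0.074, limma). *ASNS* measured 11.71 and 11.78 in replicate 1 and 11.91 and 12.00 in replicate 3, a difference of 0.21 (adjusted p = 0.15) that its 3 other probe sets gave as 0.20 to 0.25. *CBS* had 0.24 (adjusted p = 0.12), and all 5 of its other probe sets were higher in replicate 3 as well, by 0.06 to 0.31.

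Over these genes, 53 of the 66 other probe sets had the sign of the brightest one in the difference between replicates 3 and 1, and in 16 of 25 genes all of them did. The 11 tested members with a promoter match had a median difference of 0.17 between replicates 3 and 1, and the 19 with a window and no match also had 0.17. The corresponding treatment medians were 0.01 and -0.02.

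**Figure D4:**
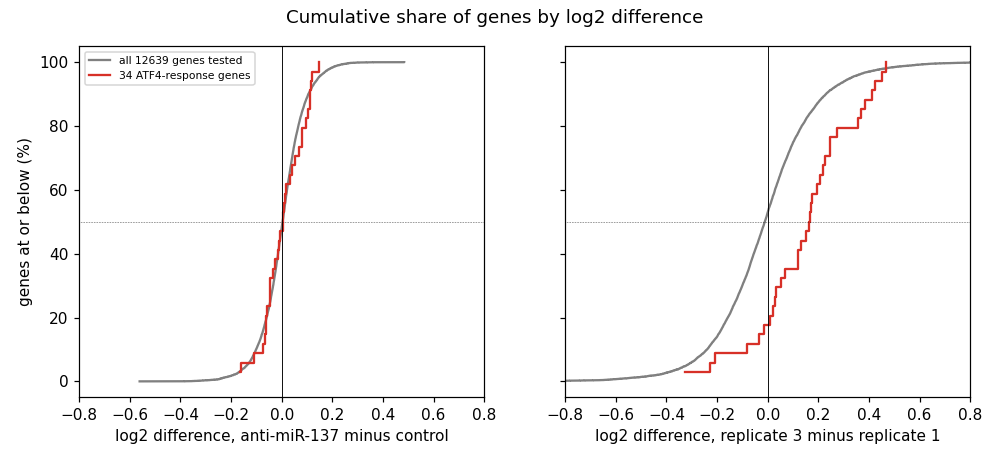
Cumulative share of genes (vertical axis, percent) by log2 difference (horizontal axis) for anti-miR-137 minus control (left) and replicate 3 minus replicate 1 (right); grey is all 12639 tested genes and red the 34 ATF4-response genes. The medians are 0.0053 against 0.0033 on the left and 0.17 against -0.01 on the right.

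Other genes of the pathway, from lists that hold no member, were treated likewise. None of 15 genes of the eIF2 kinases, eIF2 and its exchange factor passed in either comparison. Their median difference was -0.02 between treatments, where *EIF2S3*, an eIF2 subunit, had the smallest p (difference -0.11). It was 0.06 between replicates 3 and 1, with 12 of 15 genes positive (47% of all genes). In the F test over the numbers, *EIF2S1*, the eIF2 alpha subunit (0.21), and *EIF2AK3*, the endoplasmic reticulum kinase PERK (-0.16), had the smallest p. Of 20 tested other genes linked to ATF4, 0 passed in either comparison, with medians of -0.02 and 0.04. The stress cytokine *GDF15* had the smallest p between treatments, with a log2 difference of 0.26 and groups that did not overlap (adjusted p = 1.00, limma). Between replicates 3 and 1, 12 genes were positive and 8 negative. In the F test over the numbers, *KLHL24* (-0.44) and the mTORC1 inhibitor *DDIT4* (0.21) had the smallest p. *DDIT4* lay lowest in replicate 2, with means of 10.45, 10.10 and 10.66 in replicates 1, 2 and 3. The 12 other cytosolic synthetases had medians of 0.0072 and 0.11, and the 16 mitochondrial synthetases -0.0086 and 0.01. The 13 other folate and glycine enzymes had -0.0065 and 0.08, and 0 passed in each list. Between replicates 3 and 1, 9 cytosolic synthetases were positive and 3 negative (47% of all genes were positive). For mitochondrial synthetases 9 were positive and 7 negative, and for folate and glycine enzymes 8 and 5. The smallest F test p among the cytosolic synthetases belonged to *YARS1* (0.25) and *QARS1* (-0.25). Among the folate and glycine enzymes it belonged to thymidylate synthase, *TYMS* (0.40), and the folate enzyme *MTHFD1* (0.42).

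Other gene groups also differed between the numbers. Of 17 tested cell cycle genes, a list added with earlier results of these arrays known, 10 passed the F test between numbers (2.53% of all genes), 17 of 17 had both replicate 3 arrays above both replicate 1 arrays (28.9%), and the median difference was 0.50. No gene of the whole table passed this F test with RNA integrity added to the fit, or without any 1 of the replicate 1 or replicate 3 arrays. Their mean log2 level was 10.45 and 10.37 in replicate 1, 10.60 and 10.59 in replicate 2, and 10.95 and 10.90 in replicate 3. Of 16 chaperones and targets of XBP1 or ATF6, the other arms of the endoplasmic reticulum stress response, 0 passed. Their median difference was 0.20, and *MANF* (0.38) and *SDF2L1* (0.56) had the smallest p in the F test. Mesenchymal neuroblastoma markers mostly had lower values in replicate 3 than in replicate 1. Of 10 tested genes 8 were lower and 2 higher, with a median of -0.23. *YAP1* (-0.65) passed the test, and *SNAI2* (0.38) was among the higher ones. The mean level of the mesenchymal markers was 8.55 and 8.47 in replicate 1, 8.34 and 8.34 in replicate 2, and 8.28 and 8.36 in replicate 3. Of 10 noradrenergic markers 6 were higher and 4 lower in replicate 3, with a median of 0.03, and 0 passed. RNA integrity numbers were 9.5 and 9.7 in replicate 1, 9.7 and 9.8 in replicate 2, and 9.7 and 9.7 in replicate 3. With RNA integrity added to the fit, the members' median difference was 0.15 and 0 members passed. The part of the cell cycle genes and the mesenchymal markers in the members' values was not tested.

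**Figure D5:**
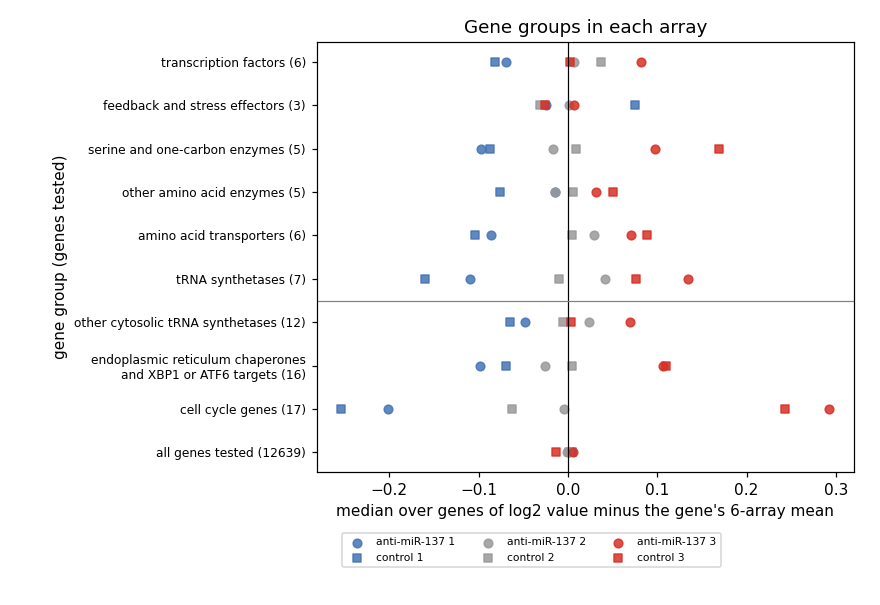
Median over the tested genes of a group (vertical axis, number of genes in brackets) of the log2 difference from the 6-array mean (horizontal axis) in each of the 6 arrays; colour is the replicate number, and circles are anti-miR-137 and squares control arrays. The tRNA synthetases run from -0.16 to 0.13, the cell cycle genes from -0.25 to 0.29, and all genes tested from -0.01 to 0.0053.

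All 10 noradrenergic neuroblastoma markers with a probe set were above the filter, as were 10 of 12 mesenchymal markers. So were 4 of 10 glial and Schwann cell markers and 1 of 6 immune cell markers (*CD68*). Passing the filter does not by itself tell these cell types apart. Over the 6 arrays the mean log2 level of the tested noradrenergic markers was 12.38 to 12.52, and that of the mesenchymal markers 8.28 to 8.55. Each array held 49393 probe sets besides controls, with a median log2 value between 6.39 and 6.43. No probe set of the miR-137 gene was used here, so the inhibition was not checked. Probe sets for *PSPH* and *CBS* may also take up RNA of near-identical copies of these genes, and their values are uncertain to that extent. All probe sets above the filter for *ATF4*, *DDIT3*, *CEBPB* and *PPP1R15A* also carry a name suffix for possible cross-hybridisation. These genes and *PSPH* dropped out of the alternative without such probe sets, which tested 29 members.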

How the data were processed

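The deposited table gives a log2 value for each probe set and array. Per the submitters' processing notes the authors made them with RMA in R 3.0.1, which corrects background, makes array distributions alike and summarises probes, so a change common to all transcripts is lost. Each of the 6 columns belonged to 1 labelled sample. Of 49393 probe sets besides 102 controls, 45278 carried 1 gene symbol in the platform annotation; 1333 carried several and 2782 none.

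Probe sets with a mean over 6 arrays under the 40th percentile of all means (5.69) were left out, and each gene was represented by its brightest probe set. limma 3.58.1 in R 4.3.3 (lmFit, eBayes, two-sided) compared treatments with group as the only term, and replicate numbers by an F test with treatment as a term, with Benjamini-Hochberg adjustment over 12639 genes and a threshold of 0.05. Members and lists were chosen with earlier results of these data known. Members named in full were set by role, plus the 6 with the smallest p between treatments and the 10 between numbers; of other lists, at most 2 genes. The steps were tested on simulated data with independent noise in each array. That check does not cover deviations shared by same-numbered arrays. No arrays held identical values (root mean square differences 0.13 to 0.24).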

Additional observations from a re-analysis of the deposited data

How the results depend on the processing

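With treatment, 0 genes and 0 members passed under every alternative run, including each left-out array (0 to 0); the members' median ran from -0.04 to 0.06, and 23 of 34 members changed sign in at least 1 alternative. Same-numbered arrays deviated together from their treatment's mean in numbers 1 and 3 (correlations 0.55 and 0.65) and hardly in 2 (0.073). These deviations sum to 0 within a treatment, so the 3 correlations are tied to each other and do not settle whether numbers are pairs. The numbers were not taken as pairs because no label says that a number marks a shared culture. The replicate block left 0 genes and 0 members past the threshold. Before adjustment it had 815 genes under 0.05, 2 of them members, against 335 genes and 0 members without it. Between replicate numbers, 320 genes passed; the count was 2 with no filter, 1099 with the filter at the 60th percentile, 1797 with a trend in the variance, 637 with array weights, 0 with the RNA integrity number as covariate, 526 with no treatment term, and 0 to 540 with an array left out (0 without any 1 of the replicate 1 or replicate 3 arrays), where the lone array of a number is assumed to vary like the others. Members past the threshold numbered 6, 13 and 4 with the stricter filter, the trend and the weights, and 3 without control replicate 2. The members' median difference between replicates 3 and 1 was 0.17 without probe sets that may cross-hybridise, 0.13 with quantile normalization, 0.19 with median centring, 0.14 with cyclic loess, 0.15 with the RNA integrity covariate, and 0.15 to 0.18 with an array left out.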
